A study of Saccharomyces cerevisiae with 11 samples.

Results

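NSR1 (YGR159C) encodes yeast nucleolin, an abundant RNA-binding protein of the nucleolus. It was taken as 1 of the 5756 genes listed in any library, and it was chosen by its measured ribosome footprints, which were far lower in the ΔES7S strain than in the WT strain. That footprint difference, and the footprint-to-mRNA ratio that contains it, are therefore given below as descriptions with no test. The mRNA difference between the strains was not used in the choice and was tested.

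Nsr1 carries an acidic amino-terminal region, RNA recognition motifs and a glycine- and arginine-rich carboxy-terminal tail. It is needed for normal processing of the 35S rRNA precursor on the path to 18S rRNA, and yeast without it make too few small (40S) ribosomal subunits. The gene was also described as induced by cold, and the protein was first identified by its binding to nuclear localization signals.

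The series holds ribosome footprints (RPF, fragments of mRNA protected by ribosomes) and randomly fragmented poly(A)-enriched mRNA from 2 kinds of Saccharomyces cerevisiae cells. ΔES7S cells carried a plasmid whose rRNA lacks ES7S, an expansion segment of the small-subunit rRNA. WT cells carried a plasmid with the wild-type rRNA sequence. In both, the genomic rDNA was depleted and all rRNA came from the plasmid, so the WT cells too differ from a laboratory strain with chromosomal rDNA. The parent strain is named yJD1045 in the series text and yJD1046 in the sample labels. Cells of both strains were grown in YPD, a rich medium, to an optical density of 0.8. There were 3 ΔES7S and 3 WT footprint libraries, 3 ΔES7S mRNA libraries and 2 WT mRNA libraries numbered 2 and 3. Replicate 1 of WT mRNA was not analysed here. Nothing in the labels says that the replicates came from separate cultures, so p-values measure the spread between these samples.

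Library totals ranged between 5712239 and 57968667 counts, and each library listed between 5567 and 5732 genes. No rRNA gene is among the genes listed, so the deletion of ES7S itself could not be checked in these counts. The ΔES7S mRNA library of replicate 1 stood apart from replicates 2 and 3: without it, 2467 of the genes tested passed the mRNA test, against 155 of 5611 with all libraries. Leaving out any one of the other 4 mRNA libraries left 0. The 137 genes for cytosolic ribosomal proteins took 11.02%, 7.91% and 5.33% of the footprint counts in ΔES7S replicates 1, 2 and 3, against 5.31% to 5.45% in the 3 WT footprint libraries. They took 13.0% to 16.4% of the ΔES7S mRNA counts, against 10.5% and 12.8% of the WT mRNA counts. The part of these differences in the results on NSR1 was not tested beyond the fit without ribosomal protein genes, where the footprint value moved by less than the spread between replicates.

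NSR1 footprints were lower in every ΔES7S library than in any WT library. Its level in counts-per-million (CPM) of the library was 165, 136 and 146 CPM in ΔES7S replicates 1, 2 and 3, against 412, 432 and 588 CPM in WT replicates 1, 2 and 3. The groups did not overlap, and the highest ΔES7S value lay below the lowest WT value. The means were 149 ± 14.8 CPM in ΔES7S cells and 477 ± 96.2 CPM in WT cells (SD, n = 3 each), a ratio of 0.312. These levels rest on 2336, 1925 and 832 NSR1 counts in the ΔES7S libraries and on 3341, 8751 and 9334 counts in the WT libraries. With the libraries scaled by TMM (trimmed mean of M values), the fitted log2 fold change, ΔES7S minus WT, was -1.60 ± 0.15 (SE), or 3.04-fold lower in ΔES7S cells.

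NSR1 mRNA showed no such difference. It took 338, 381 and 245 CPM in ΔES7S mRNA replicates 1, 2 and 3, against 346 and 375 CPM in WT mRNA replicates 2 and 3. The groups overlapped: ΔES7S replicate 2 was the highest of the 5 libraries and ΔES7S replicate 3 the lowest. The means were 321 ± 69.8 CPM (SD, n = 3) in ΔES7S cells and 360 ± 20.5 CPM (SD, n = 2) in WT cells, a ratio of 0.892. The fitted log2 fold change was 0.05 ± 0.26 (SE), with an adjusted p of 0.913 by edgeR's quasi-likelihood test over all genes. Its 95% interval, -0.55 to 0.65, spans ratios between 0.682 and 1.57, so these 5 libraries do not exclude an mRNA difference inside that range. The sign turned without ΔES7S mRNA replicate 2 (-0.21) or WT mRNA replicate 2 (-0.034). The ratio of raw CPM and the fitted value differ in sign, because the TMM factors of the mRNA libraries ranged between 0.8345 and 1.10. The mRNA was extracted from whole cultures, where fewer cells with the transcript and less transcript per cell cannot be told apart.

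**Figure D1:**
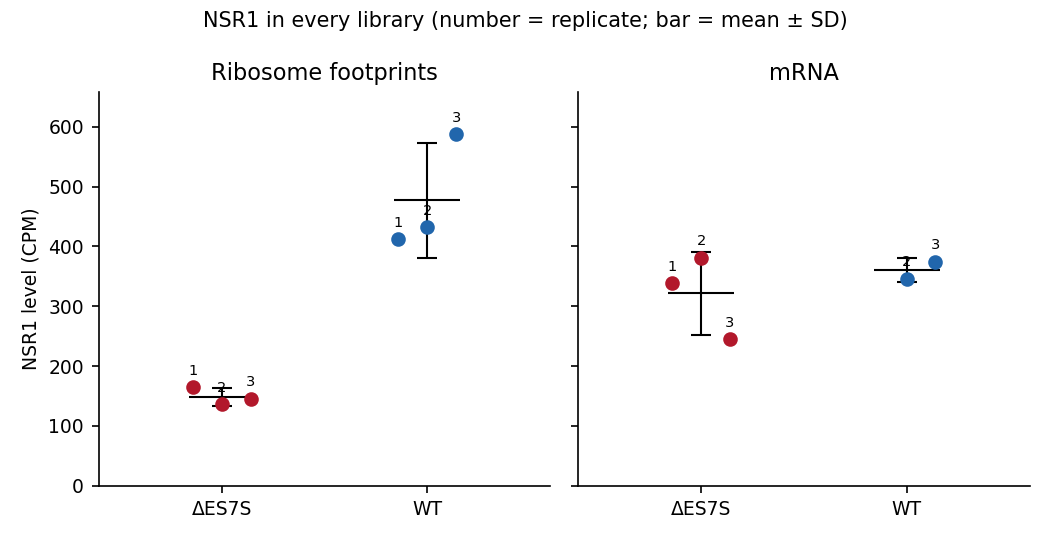
NSR1 level in counts-per-million (CPM) in each library, footprints on the left and mRNA on the right; each point is 1 library with its replicate number, and bars give the mean ± SD. The 3 ΔES7S footprint libraries sit between 136 and 165 CPM, below all 3 WT footprint libraries, whereas the ΔES7S and WT mRNA libraries overlap.

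Per length, NSR1 stood lower in the order of footprint levels in ΔES7S cells than in WT cells. In TPM, a level per coding length scaled to a fixed library total (1245 bases for NSR1), its footprint level was 108, 90.3 and 101 in ΔES7S replicates 1, 2 and 3, against 287, 293 and 408 in WT replicates 1, 2 and 3. Its place among 5752 genes, counted down from the highest footprint TPM, was 1413, 1607 and 1557 in the ΔES7S libraries, against 657, 621 and 440 in the WT libraries. On average, 73.5% ± 1.75 of genes had a lower footprint TPM than NSR1 in ΔES7S cells, against 90.0% ± 2.02 in WT cells (SD, n = 3 each). By mRNA TPM the places overlapped, at 660, 553 and 859 in ΔES7S replicates 1, 2 and 3, against 653 and 592 in WT replicates 2 and 3.

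Of the 4 groups of libraries, mean NSR1 CPM was ordered WT footprints, WT mRNA, ΔES7S mRNA and ΔES7S footprints. The neighbours WT mRNA and ΔES7S mRNA overlapped. The other neighbouring groups did not overlap, although the scales of footprints and mRNA are set separately. For a ratio per replicate, footprint and mRNA libraries were matched by number, which need not mean a shared culture. The footprint-to-mRNA ratio of CPM was 0.488, 0.356 and 0.595 in ΔES7S replicates 1, 2 and 3, against 1.25 and 1.57 in WT replicates 2 and 3. NSR1 therefore carried fewer footprints per mRNA count than the average count in ΔES7S cells, and more in WT cells. On the fitted scale, footprint minus mRNA was -1.22 ± 0.21 in ΔES7S cells, where 13.1% of 5588 genes had a lower value, and 0.48 ± 0.23 in WT cells, where 69.4% did. The difference between those values, called translation efficiency (TE) here, was -1.70 ± 0.31 on the log2 scale, ΔES7S minus WT, or 3.24-fold lower in ΔES7S cells. TE is a ratio of counts and does not measure elongation speed or protein made.

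Among all genes, few had a lower footprint fold change than NSR1. In the footprint comparison 1463 of 5442 genes passed an adjusted p of 0.05 (26.9%), with 688 lower (12.6%) and 775 higher (14.2%) in ΔES7S cells; 39.2% had an unadjusted p under 0.05. NSR1 stood 19th from the lowest of the 5442 fold changes, as the rule that chose it would have it. Its neighbours in the order of the 792 genes with an average footprint log2 CPM of at least 8 were FRM2, a nitroreductase-like gene, at -1.71 ± 0.67 and OLE1, the fatty acid desaturase, at -1.52 ± 0.18. The lowest value there belonged to IMD2, an IMP dehydrogenase of guanine nucleotide synthesis, at -2.27 ± 0.22. FRM2 and IMD2 were named after their values were seen. NSR1 was 3rd of these 792 genes.

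The mRNA comparison placed NSR1 near the middle, 3099th from the lowest of 5611 genes. There 155 genes passed the test (2.76%), with 88 lower (1.57%) and 67 higher (1.19%) in ΔES7S cells; 30.8% had an unadjusted p under 0.05. Of the 688 genes whose footprints fell, 26 also fell in mRNA, 0 rose in mRNA and 662 did not pass the mRNA test. Not passing does not show that the mRNA was unchanged, since the mRNA calls depended strongly on the libraries kept. Of the same 688 genes, 170 were lower in TE. In TE, 501 of 5588 genes passed (8.97%), with 242 lower (4.33%) and 259 higher (4.63%), and 29% had an unadjusted p under 0.05. The TE split was 139 lower and 278 higher when libraries were scaled by their upper quartiles. NSR1 stood 28th from the lowest TE difference of the 5588.

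**Figure D2:**
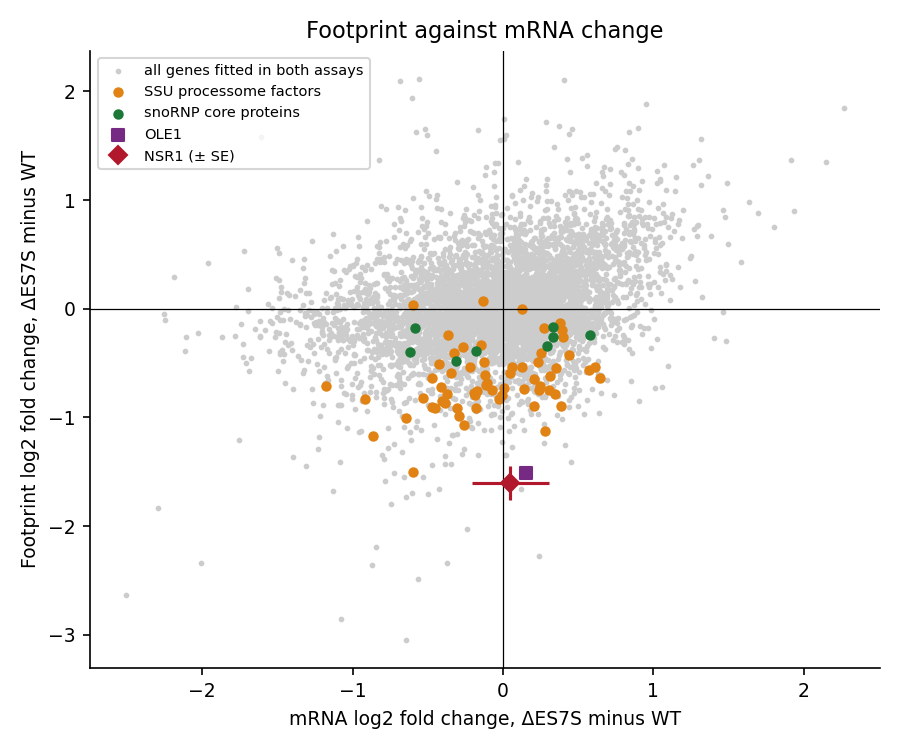
Footprint log2 fold change against mRNA log2 fold change, ΔES7S minus WT, for each gene fitted in both assays (grey), with small-subunit (SSU) processome factors, snoRNP core proteins, OLE1 and NSR1 (± SE) marked. NSR1 lies at -1.60 for footprints and 0.05 for mRNA, beside OLE1 and below all processome and snoRNP points.

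The SSU processome is the large particle that assembles on the 5′ end of the nascent 35S precursor and carries out the early cleavages that release the 18S precursor. Footprints fell for 51 of its 62 listed factors in ΔES7S cells, rose for 0, and did not pass the test for 11. Over all genes 12.6% were lower. The median log2 fold change of the 62 factors was -0.70, against 0.00 over all genes tested. No member had a lower fold change than NSR1; the range was -1.50 to 0.07. Leaving out 1 library at a time left between 36 and 53 members lower.

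The lowest member was FAF1, a factor needed for 40S subunit assembly. Its footprints stood at 19.5, 17.4 and 16.8 CPM in ΔES7S replicates 1, 2 and 3, against 51.1, 46.1 and 64.3 CPM in WT replicates 1, 2 and 3, with a log2 fold change of -1.50 ± 0.14 and an adjusted p of 0.0003 (edgeR). The libraries of the strains did not overlap. FAF1 was named for having the lowest footprint value of the list, so its low footprints come with that choice. FAF1 mRNA differed from that of NSR1 in its values, at 33.8, 14.5 and 15.2 CPM in ΔES7S cells, against 34.0 and 37.8 CPM in WT cells, with a log2 fold change of -0.60 ± 0.31. It did not pass the mRNA test with all libraries and passed without ΔES7S replicate 1 (-0.99).

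UTP5, a subunit of the t-Utp complex that binds the precursor early, followed at -1.17 ± 0.15 in footprints and -0.86 ± 0.29 in mRNA, where it did not pass the test with all libraries and passed without ΔES7S replicate 1 (-1.25). HCA4, a DEAD-box RNA helicase, was at -1.13 ± 0.12 in footprints and 0.28 ± 0.18 in mRNA. HCA4 footprints stood at 40.2, 37.0 and 42.0 CPM in ΔES7S replicates 1, 2 and 3, against 84.9, 82.7 and 106 CPM in WT replicates 1, 2 and 3. Its TE fell by 1.45 on the log2 scale, with an adjusted p of 0.0076 in edgeR, a call that was lost without WT mRNA replicate 2 (-1.36). UTP5 and HCA4 were also named for their low footprints, which the TE difference contains. At the other end, SLX9, RRP7 and UTP20, which act in export, in the UTP-C complex and in pre-rRNA processing, had footprint values of 0.00 ± 0.15, 0.04 ± 0.13 and 0.07 ± 0.16 and did not pass the test.

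In mRNA, 0 of the 62 processome factors passed edgeR's quasi-likelihood test, and their median was -0.12, against -0.01 over all genes. At an unadjusted p under 0.05, 2 were lower and 4 higher. DESeq2 called 2 higher and 0 lower, limma-voom called 0, and the joint fit of both assays called 2 lower and 4 higher. Without ΔES7S mRNA replicate 1, 24 were lower and 4 higher. In TE, 19 of 62 were lower and 0 higher, where 4.33% of all genes were lower. The median of the 62 was -0.64, against -0.01 over all genes. The count lower was 11 with upper-quartile scaling. That count was 0 without WT mRNA replicate 2, 4 without WT mRNA replicate 3, 6, 9 and 12 without WT footprint replicates 3, 2 and 1, 7 and 12 without ΔES7S footprint replicates 2 and 3, and 12 without ΔES7S mRNA replicate 2.

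**Figure D3:**
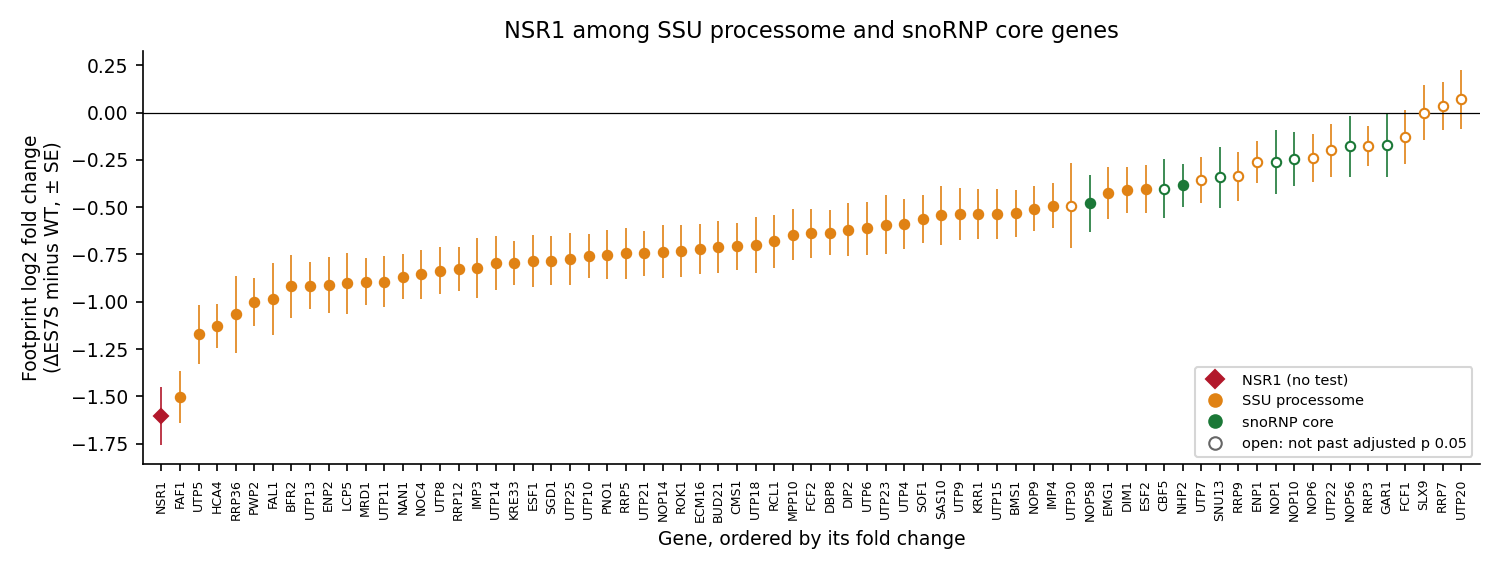
Footprint log2 fold change, ΔES7S minus WT (± SE), of NSR1, the 62 SSU processome factors and the 8 snoRNP core proteins, ordered by value; open points did not pass an adjusted p of 0.05, and NSR1 was not tested. The values run between NSR1 at -1.60 and UTP20 at 0.07, with FAF1 next to NSR1 at -1.50.

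The processome counts also served as a yardstick within each library that does not depend on the library total. NSR1 took 34.0, 33.3 and 32.7 footprint counts for every 1000 on the 62 processome genes in ΔES7S replicates 1, 2 and 3, against 61.4, 65.3 and 71.4 in WT replicates 1, 2 and 3. The groups did not overlap, and the spread among ΔES7S libraries was smaller than that among WT libraries. The means were 33.4 ± 0.653 in ΔES7S cells and 66.0 ± 5.05 in WT cells (SD, n = 3 each). NSR1 footprints were thus lower than the summed processome footprints in ΔES7S cells relative to WT cells; this contains the contrast that chose the gene and carries no test.

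The same measure in mRNA was 56.2, 94.2 and 62.4 in ΔES7S replicates 1, 2 and 3, against 68.0 and 67.3 in WT replicates 2 and 3. ΔES7S replicate 2 was above both WT libraries and the other ΔES7S libraries were below them. The means were 70.9 ± 20.4 (SD, n = 3) in ΔES7S cells and 67.7 ± 0.521 (SD, n = 2) in WT cells.

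**Figure D4:**
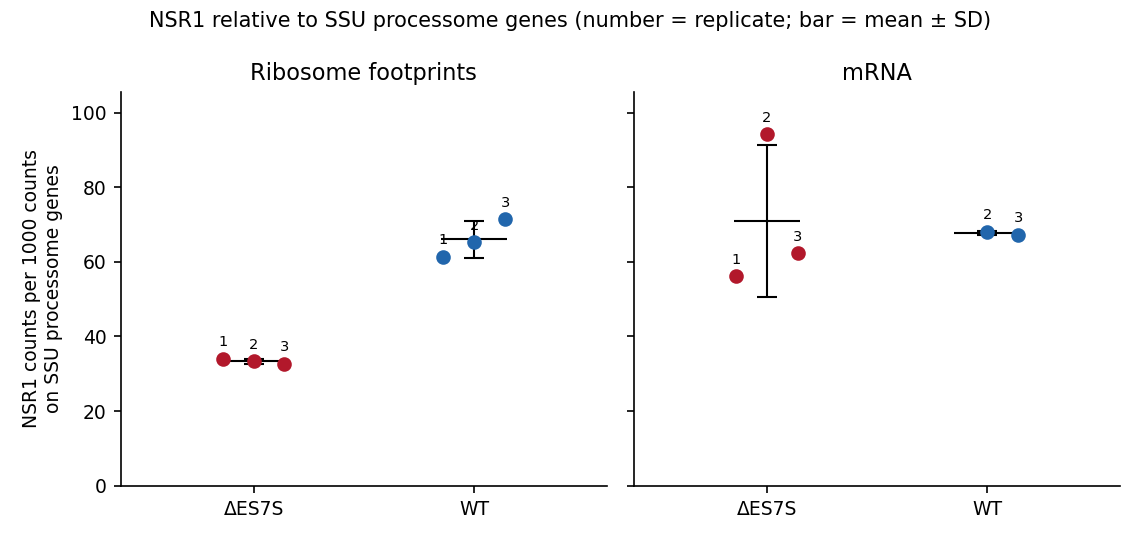
NSR1 counts per 1000 counts on the 62 SSU processome genes in each library, footprints on the left and mRNA on the right; points are libraries with replicate numbers and bars the mean ± SD. ΔES7S footprint libraries lie at 32.7 to 34.0, below the WT footprint libraries at 61.4 to 71.4, and the mRNA libraries of the strains overlap.

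The core proteins of the box C/D and box H/ACA small nucleolar ribonucleoproteins (snoRNPs) work beside nucleolin in the nucleolus, methylating and pseudouridylating rRNA. Some of them, such as the methyltransferase NOP1 (fibrillarin) and the H/ACA protein GAR1, share with Nsr1 a glycine- and arginine-rich domain. Of the 8 core genes, 2 fell in footprints, 0 rose and 6 did not pass the test, where 26.9% of all genes were called and 12.6% were lower. All 8 footprint fold changes were between -0.48 and -0.17, with a median of -0.30 against 0.00 over all genes.

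NOP58, a C/D scaffold protein, fell by 0.48 ± 0.15 on the log2 scale (adjusted p 0.0362), and NHP2, an H/ACA protein, by 0.39 ± 0.11 (adjusted p 0.0304), both by edgeR. The count of 2 did not hold when libraries were left out. It was 0 without ΔES7S footprint replicate 2 or any 1 of the WT footprint libraries, 1 without ΔES7S replicate 3, and 5 without ΔES7S replicate 1. The joint fit of both assays called 0. NOP1 and GAR1 had footprint fold changes of -0.26 ± 0.17 and -0.17 ± 0.17 and did not pass. The other members were CBF5, the pseudouridine synthase, at -0.40 ± 0.16, the C/D protein SNU13 at -0.34 ± 0.16, the H/ACA protein NOP10 at -0.25 ± 0.14 and the C/D scaffold NOP56 at -0.18 ± 0.16.

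In mRNA 0 of the 8 snoRNP genes passed edgeR's test, and 1 was higher at an unadjusted p under 0.05. The same test without ΔES7S mRNA replicate 1 called 3 lower and 1 higher. CBF5 and NOP56 mRNA varied most within ΔES7S cells. CBF5 mRNA was 277, 64.4 and 121 CPM in ΔES7S replicates 1, 2 and 3, against 211 and 304 CPM in WT replicates 2 and 3. NOP56 mRNA was 123, 29.5 and 42.3 CPM in ΔES7S replicates 1, 2 and 3, against 88.5 and 125 CPM in WT replicates 2 and 3. For both genes ΔES7S replicate 1 lay between the WT values, with replicates 2 and 3 below. NSR1 mRNA did not follow that order, since its ΔES7S replicate 2 was the highest.

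Set against these proteins per length, NSR1 footprint TPM divided by the median snoRNP footprint TPM was 0.272, 0.300 and 0.347 in ΔES7S replicates 1, 2 and 3, against 0.717, 0.700 and 0.890 in WT replicates 1, 2 and 3. The means were 0.306 ± 0.0378 in ΔES7S cells and 0.769 ± 0.105 in WT cells (SD, n = 3 each), with no overlap. This footprint ratio also contains the contrast that chose NSR1 and carries no test. By mRNA TPM the ratio was 0.696, 0.968 and 0.702 in ΔES7S replicates 1, 2 and 3, against 0.903 and 0.817 in WT replicates 2 and 3, and the groups overlapped.

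In TE, 0 of the 8 snoRNP genes passed edgeR's test, 2 were lower at an unadjusted p under 0.05, DESeq2 called 1 lower and limma-voom 0. Their median TE difference was -0.40, against -0.01 over all genes. Without ΔES7S mRNA replicate 1, 2 were lower and 1 higher.

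RNA polymerase I transcribes the rDNA into the 35S precursor that Nsr1 helps to process. Of 18 genes for its subunits, initiation factors and other rDNA-bound proteins, 8 fell in footprints, 0 rose and 10 did not pass. Over all genes 12.6% were lower and 14.2% higher. The median of the 18 was -0.39, against 0.00 over all genes. The largest subunit gene, RPA190, fell by 0.70 ± 0.14, the second-largest, RPA135, by 0.67 ± 0.15, and RPA49 by 0.63 ± 0.14. The call of RPA135 was lost without ΔES7S footprint replicate 2 or WT footprint replicate 3 (-0.58 each), and that of RPA49 without WT footprint replicate 3 (-0.54). The small subunit RPA14 (0.08 ± 0.16), the upstream activating factor subunit RRN10 (0.32 ± 0.15) and the high-mobility-group protein HMO1 (0.37 ± 0.15) did not pass the test with all libraries; HMO1 passed without ΔES7S footprint replicate 3 (0.44). The count lower was 2 without ΔES7S footprint replicate 2, 5 without WT footprint replicate 1 and 1 without WT footprint replicate 3.

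In mRNA 0 of these 18 passed edgeR's test, with 1 lower and 1 higher at an unadjusted p under 0.05; DESeq2 called 1 higher and limma-voom 0. Without ΔES7S mRNA replicate 1, 3 were lower and 2 higher. In TE 2 were lower and 0 higher, where 4.33% of all genes were lower. With 1 library left out, 0 to 4 were lower and 0 to 1 higher. RPA190 was among the 2 lower with all libraries (-1.15 ± 0.26). Its call was lost without either WT mRNA library, WT footprint replicate 2 or 3, or ΔES7S footprint replicate 2 (-1.23 to -1.08).

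A group of 17 other RNA-binding proteins with RNA recognition motifs or glycine- and arginine-rich stretches was split. Footprints fell for 5 and did not pass for 12, where 26.9% of all genes were called and 12.6% were lower. The median of the 17 was -0.13, against 0.00 over all genes. The 5 that fell were all nucleolar assembly factors: MRD1 (-0.89 ± 0.13), which binds the 35S precursor and is also counted in the processome list, NOP4 (-0.76 ± 0.15), NOP12 (-0.60 ± 0.13), NOP15 (-0.56 ± 0.14) and NOP13 (-0.52 ± 0.16). NOP15 and NOP13 were named after their values were seen. The count was 2 without ΔES7S footprint replicate 2 or without WT footprint replicate 3, and NOP12 was among the calls lost (-0.57 and -0.53).

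The 12 members that did not pass the footprint test lay between -0.27 (PUB1) and 0.29. At the upper end, the translational repressor SBP1 was at 0.26 ± 0.16, the ribosome-associated STM1 at 0.28 ± 0.19 and the mRNA 3′-end factor HRP1 at 0.29 ± 0.14, and none of these passed the test with all libraries. STM1 passed without ΔES7S footprint replicate 3 (0.45). In mRNA 0 of 17 passed edgeR's test, although the median was 0.36 against -0.01 over all genes; 2 were lower and 4 higher at an unadjusted p under 0.05, DESeq2 called 1 lower and limma-voom 0. Without ΔES7S mRNA replicate 1, 2 were lower and 7 higher, and the joint fit of both assays called 2 lower and 3 higher. The median TE difference was -0.66, against -0.01 over all genes. In TE, MRD1, NOP4, NOP12 and NOP13 were lower and 0 were higher, where 4.33% of all genes were lower. The number of members lower was 0 without either WT mRNA library and 1 without ΔES7S footprint replicate 2 or WT footprint replicate 3. That number was 2 without ΔES7S footprint replicate 3, WT footprint replicate 2 or ΔES7S mRNA replicate 2. Without ΔES7S mRNA replicate 1 it was 9 lower and 3 higher. Without either WT mRNA library the TE values of MRD1, NOP4 and NOP12 were between -1.22 and -0.84.

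NSR1 belongs to the genes described as cold-induced, and of the other 7 of that list 1 rose in footprints, 1 fell and 5 did not pass the test. That is near the 26.9% called over all genes and is no result on the list. TIP1, a cell wall mannoprotein, rose in footprints (0.90 ± 0.18, adjusted p 0.0055 by edgeR) and in mRNA (1.94 ± 0.28, adjusted p 0.0355). TIP1 footprints were 856, 1118 and 1159 CPM in ΔES7S replicates 1, 2 and 3, against 638, 636 and 485 CPM in WT replicates 1, 2 and 3. The mRNA call of TIP1 was lost without ΔES7S replicate 2 or 3 or WT replicate 2 or 3, with log2 values between 1.80 and 2.07.

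OLE1, whose desaturase keeps membranes fluid, was the one of these 7 closest to NSR1 in footprint log2 fold change. Its footprints were 289, 327 and 452 CPM in ΔES7S replicates 1, 2 and 3, against 1003, 986 and 1221 CPM in WT replicates 1, 2 and 3. Its mRNA was 369, 441 and 446 CPM in ΔES7S replicates 1, 2 and 3, against 459 and 414 CPM in WT replicates 2 and 3. The footprint groups did not overlap and the mRNA groups did. OLE1 fell by 1.52 ± 0.18 in footprints (adjusted p 0.0007, edgeR). In TE it fell by 1.72 ± 0.31 (adjusted p 0.0124, edgeR). The TE call was lost without WT mRNA replicate 2 (-1.77) or 3 (-1.67).

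The cell wall genes TIR1, TIR2 and TIR4 had footprint values of -0.25 ± 0.27, 0.47 ± 0.39 and -0.22 ± 0.55 at low counts, and LOT5 and LOT6 had -0.06 ± 0.13 and 0.14 ± 0.10. None of these 5 passed the footprint test.

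Of 4 genes for import into the nucleus and for rDNA topology, 1 rose in footprints and 0 fell, near the 26.9% called over all genes. The importin-α gene SRP1 was at 0.01 ± 0.12 and the importin-β gene KAP95 at -0.06 ± 0.10. KAP104, the karyopherin that imports glycine- and arginine-rich mRNA-binding proteins, rose by 0.50 ± 0.11 (adjusted p 0.0081, edgeR). TOP1, the topoisomerase that relaxes rDNA, was at -0.25 ± 0.15 and did not pass. In mRNA 0 of these 4 passed the edgeR test, with KAP95 at 0.86 ± 0.25. At an unadjusted p under 0.05, 2 were higher and 0 lower, DESeq2 called 2 higher and limma-voom 0; KAP95 and KAP104 passed without ΔES7S mRNA replicate 1 (1.05 and 0.51). KAP95 was lower in TE (-0.97 ± 0.27), a call lost when any library other than ΔES7S mRNA replicate 1 was left out (-1.0 to -0.70).

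Of 4 listed genes in the stretch of chromosome around NSR1, 2 fell and 2 rose in footprints, against 12.6% and 14.2% of all genes. The list leaves out YGR161W-C, a counted gene that lies nearer to NSR1 than the listed TIF4631 does. MTR3, an exosome subunit, fell by 0.50 ± 0.13 and TIF4631, the translation initiation factor eIF4G, by 0.65 ± 0.14. RTS3 rose by 0.41 ± 0.13 and CHO2, a phospholipid methyltransferase, by 0.43 ± 0.14. All 4 calls were lost without ΔES7S footprint replicate 2. Those of MTR3 (-0.53 to -0.47), RTS3 (0.33 to 0.49) and CHO2 (0.35 to 0.44) were lost also without WT footprint replicate 2 or 3, that of RTS3 without WT footprint replicate 1, and that of CHO2 without ΔES7S footprint replicate 3. Both rises were lost also with upper-quartile scaling (0.39 for RTS3 and 0.41 for CHO2) and in the joint fit of both assays (0.41 and 0.43). In mRNA 0 of the 4 passed edgeR's test with all libraries, 1 was higher at an unadjusted p under 0.05, and DESeq2 and limma-voom called 0. TIF4631 (0.79) and CHO2 (0.57) passed without ΔES7S mRNA replicate 1. In TE 1 of the 4 was lower, TIF4631 (-1.34 ± 0.31), and 0 were higher, where 4.33% of all genes were lower. The TE call of TIF4631 was lost without either WT mRNA library, any 1 WT footprint library or ΔES7S footprint replicate 2 (-1.42 to -1.27). The open reading frame YGR160W, which overlaps NSR1 on the other strand in the yeast annotation, was not analysed here, and the strand setting of the counting is not given in the sources used here.

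Genes were also ordered by how alike their pattern was to that of NSR1, as Pearson's r of TMM-scaled log2 CPM over the 11 libraries after centring each assay on its own mean. The libraries share depth, scaling and the strain difference that chose NSR1, so r is a description with no test. Over 4835 genes the median r was 0.00 and the 95th percentile 0.809, and 88 genes reached 0.9. The highest was RRS1, a factor that brings the 5S ribonucleoprotein into the large subunit, at 0.993. NOB1, the endonuclease that makes the 3′ end of 18S rRNA, had 0.983, AFG2, an ATPase of pre-60S maturation, 0.977, the nucleoporin NUP1 0.977 and the tRNA dihydrouridine synthase DUS1 0.972.

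RRS1 footprints were 89.5, 79.5 and 88.1 CPM in ΔES7S replicates 1, 2 and 3, against 162, 164 and 203 CPM in WT replicates 1, 2 and 3. RRS1 mRNA was 77.0, 67.1 and 57.4 CPM in ΔES7S replicates 1, 2 and 3, against 71.5 and 76.6 CPM in WT replicates 2 and 3. As in NSR1, the footprint groups did not overlap and the mRNA groups did. Its footprint log2 difference was -0.97 ± 0.11, and those of DUS1, NOB1, NUP1 and AFG2 were -0.85 ± 0.12, -0.67 ± 0.12, -0.67 ± 0.10 and -0.50 ± 0.10. In mRNA these 5 genes were between 0.04 and 0.12. Each of the 5 was below its assay mean in all ΔES7S footprint libraries and above it in all WT footprint libraries, as NSR1 was, and their order within a strain varied. All 5 were picked by their likeness to NSR1 over these libraries. The lack of footprint overlap in RRS1 and these signs therefore come largely with that choice and are no separate result.

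The genes least alike were TMA17, a proteasome assembly chaperone, at r = -0.977 and YGR111W, a gene with no role given here, at -0.974, with footprint log2 differences of 0.73 ± 0.14 and 0.47 ± 0.10. The 60 processome genes in this set had a median r of 0.764 and the 8 snoRNP genes 0.526. Which genes came out on top depended on the libraries: with footprints alone the 5 highest were AGP1, RRS1, RIX1, TRM11 and NOG1, and with mRNA alone FIR1, STE23, MYG1, BUD23 and NOB1.

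**Figure D5:**
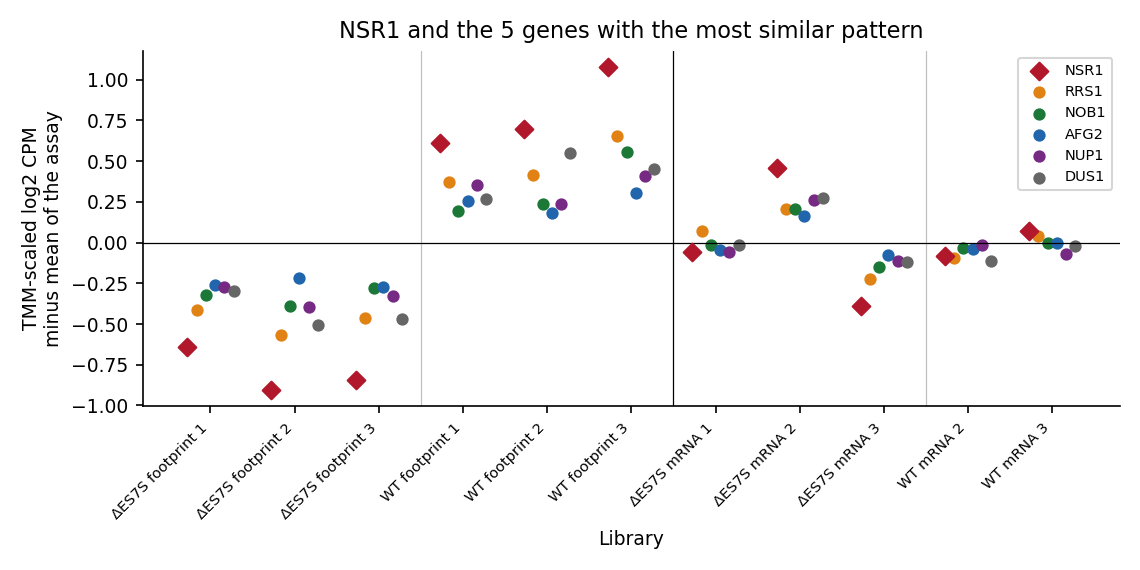
TMM-scaled log2 CPM minus the mean of the assay in each library for NSR1 and the 5 genes with the most similar pattern; each point is 1 gene in 1 library, with footprints left and mRNA right. NSR1 lies between -0.90 and -0.64 in the ΔES7S footprint libraries and between 0.61 and 1.08 in the WT footprint libraries. In the footprint libraries the other 5 genes show the same signs with smaller values, whereas in mRNA some signs differ from those of NSR1.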

How the data were processed

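The authors deposited whole-number counts of reads per gene, 1 table for each library, with no normalization. FastQC 0.11.7 and Bowtie 1.2.3 are named in the submitters' processing notes, with genome build, annotation, counter, strand setting and treatment of multiply mapped reads not given in the sources used here. Per the labels' protocols, fragments of 24 to 28 nt were selected and amplified for 4 to 8 PCR cycles. No molecular identifiers are named, so PCR copies of a fragment could not be told from separate fragments. The SD and SE values given here include the spread between libraries.

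A gene missing from a table was taken as 0. Of 5756 gene identifiers, 5752 matched the RefSeq R64 gene table, used for names, neighbour order and lengths (for TPM) only; no coordinates are given, because no build is named. Groups came from the sample labels. No 2 libraries of a group agreed within sampling noise (chi-square per gene 27.5 to 241).

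Fits used R 4.3.3 and edgeR 4.0.16 (filterByExpr, TMM, robust quasi-likelihood fit, prior count 2) with Benjamini-Hochberg adjustment over all genes tested and a threshold of 0.05. Footprints and mRNA were fitted separately. TE is the strain-by-assay interaction over all 11 libraries. SE is the absolute log2 fold change divided by the square root of F. The main edgeR fits of footprints, mRNA and TE were also run on simulated data, and the alternatives were not. Alternatives were other scalings, no filter, no ribosomal protein genes, DESeq2 1.42.0, limma-voom (limma 3.58.1), a joint fit, a replicate block and leaving out each library.

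NSR1 and the gene lists were chosen with earlier results of these data known. Genes named are NSR1, all snoRNP core, neighbour, cold-induced and import or topology genes, the 3 lowest and 3 highest footprint fold changes (average log2 CPM at least 4) of the processome, RNA polymerase I and RNA-binding lists, and the 5 most and 2 least alike genes. Naming by RGG triplets was not applied, since no protein sequences were used here.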

Additional observations from a re-analysis of the deposited data

How the results depend on the processing

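NSR1's footprint difference stayed between -1.69 and -1.45 and its TE difference between -1.83 and -1.40 when 1 library was left out. The mRNA difference of NSR1 changed sign with upper-quartile scaling (-0.029) and ranged between -0.21 and 0.23 with 1 library left out; it did not pass the test in any of these fits. The main fits did not pair the strains by replicate number. In footprints, deviations from the group mean correlated at 0.0191, 0.184 and 0.0870 between same-numbered libraries. Differently numbered libraries ranged between -0.278 and 0.0803. In mRNA the same-numbered values were -0.160 and -0.635. The deviations of the 2 WT mRNA libraries mirror each other, and groups of 3 are also constrained. These correlations therefore cannot decide whether the numbers pair. With a replicate block NSR1 was at -1.59 in footprints, 0.04 in mRNA and -1.74 in TE. The genes called under it numbered 1341 in footprints, 1924 in mRNA and 313 in TE. ΔES7S mRNA replicate 1 has no WT mRNA library of its number, so it added nothing to the blocked mRNA strain difference. That blocked mRNA fit is therefore close to leaving this library out. WT footprint replicate 1 likewise added nothing to the blocked TE difference. The block called 23 processome, 3 snoRNP, 2 RNA polymerase I and 2 RNA-binding members lower in mRNA, with 1, 1, 0 and 3 higher. In footprints it called 1 snoRNP member lower, and the rises of RTS3 (0.41) and CHO2 (0.43) did not pass under it. Genes called ranged with 1 library left out between 684 and 1749 in footprints, 0 and 2467 in mRNA, and 11 and 1848 in TE. In mRNA, DESeq2 called 1031, limma-voom 327 and the joint fit 1463; in TE, DESeq2 called 909. Processome members lower in TE numbered 11 with upper-quartile scaling and 0 to 26 with 1 library left out. Upper-quartile scaling moved the median TE difference of all genes to 0.10, where NSR1 stood at -1.58. The likeness of RRS1 was 0.999 in footprints alone and 0.936 in mRNA alone. By CPM with no length, 77.5% of genes lay below NSR1 in ΔES7S footprints, 93.2% in WT footprints and 91.2% in WT mRNA. Across the named genes 0 values that passed a test changed sign. The mRNA calls rest on 2 WT libraries and were lost without ΔES7S replicate 2 or 3, and the smallest NSR1 count behind a level is 832. The cause of these differences between settings was not tested.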
